A study of Mus musculus with 136 samples.

Results

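The 30 genes described here make cholesterol or handle it in the cell, out of 47643 genes in the count table. They were chosen by name, as 20 enzymes of cholesterol synthesis, 5 regulators of the pathway and 5 genes of sterol transport, release and storage. They were also chosen by what earlier results of these same data showed, so the differences given here describe these genes and are no independent evidence that the pathway changed. Idi1, an isomerase of the isoprenoid steps, had 806 counts over all libraries and did not pass the filter on low counts. The other 29 genes were tested in each comparison.

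Cells build cholesterol from acetyl-CoA through mevalonate, isoprenoid units, squalene and lanosterol, and the isoprenoid units also feed other products such as prenyl groups on proteins. When sterol in the endoplasmic reticulum runs low, SCAP escorts the transcription factor SREBP2 to the Golgi, where it is cut and released to the nucleus, while the INSIG proteins hold the pair back when sterol is plentiful. The yolk sac endoderm takes up maternal lipoproteins and hands lipid on to the rodent embryo before the placenta works. Sterol is also needed in the embryo for membranes and for Hedgehog signalling.

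Libraries were made from the embryo and from the visceral yolk sac, the membrane around the embryo, of 66 concepti at E8.5. All dams and sires were of the NOD strain, an inbred mouse in which females become diabetic without treatment, so that the controls are NOD mice too. The counts come from whole tissue. The labels also give a sex for each library and a number in the litter name, and the groups were not matched for either. The most common number covered 12 normal and 13 diabetic embryos at 5 or 6 somite pairs, and 13 and 8 at 7 to 9. Normal litters numbered 10, with maternal glucose of 105 to 164 mg/dl, and diabetic litters numbered 12, with 423 to 595 mg/dl and 1 litter above the meter's scale. Each tissue gave 17 normal and 17 diabetic libraries at 5 or 6 somite pairs (10 and 9 litters) and 16 normal and 16 diabetic libraries at 7 to 9 somite pairs (7 and 6 litters). Yolk sacs carry the somite count of their embryo. Littermates share a dam, which is the unit that has diabetes, and 7 of the 16 later diabetic concepti came from the litter D24M15.

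The libraries held 1017901 to 5658850 counts of molecules each, with a median of 2302819. In 2 concepti the embryo and the yolk sac had different sex labels, and the sex genes of each library followed its own label. Without these concepti the members called below in diabetic embryos numbered 4 in place of 5 at 5 or 6 somite pairs and 2 in place of 4 at 7 to 9. The tissues matched their labels: 10 markers of visceral endoderm summed to group medians of 8835 to 13700 CPM (counts scaled to library size) in yolk sacs and 198 to 305 in embryos. Markers of neural tissue and paraxial mesoderm summed to group medians of 371 to 457 in embryos.

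Promoters are shown for 7 of the 9 genes called in embryos below, because the windows let a reader see what these genes share upstream. The promoter table used here held no window for Sqle and Stard4, nor for Fdps, Fdft1 and Npc1. They are 200 bases each from RefSeq on GRCm38.p6, read 5′ to 3′ on the strand of the gene, with matches to the searched motifs in capitals. The motifs were the CCAAT box (CCAAT, or ATTGG when read on the other strand), a sterol regulatory element core (TCACNCCAC) and an E-box (CACGTG), each searched on both strands.
Hmgcs1, chr13:119690151-119690350, plus strand: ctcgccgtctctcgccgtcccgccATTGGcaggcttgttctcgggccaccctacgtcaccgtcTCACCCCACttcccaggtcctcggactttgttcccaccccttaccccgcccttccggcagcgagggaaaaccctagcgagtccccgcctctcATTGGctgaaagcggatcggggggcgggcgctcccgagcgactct
Mvd, chr8:122443423-122443622, minus strand: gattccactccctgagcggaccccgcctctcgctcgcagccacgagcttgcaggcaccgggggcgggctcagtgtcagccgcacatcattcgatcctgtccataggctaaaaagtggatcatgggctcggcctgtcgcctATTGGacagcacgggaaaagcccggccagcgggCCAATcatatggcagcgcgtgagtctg
Lss, chr10:76531405-76531604, plus strand: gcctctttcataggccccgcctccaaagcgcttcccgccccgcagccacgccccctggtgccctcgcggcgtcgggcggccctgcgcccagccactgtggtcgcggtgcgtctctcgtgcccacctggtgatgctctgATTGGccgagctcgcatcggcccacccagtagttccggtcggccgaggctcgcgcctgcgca
Cyp51, chr5:4104698-4104897, minus strand: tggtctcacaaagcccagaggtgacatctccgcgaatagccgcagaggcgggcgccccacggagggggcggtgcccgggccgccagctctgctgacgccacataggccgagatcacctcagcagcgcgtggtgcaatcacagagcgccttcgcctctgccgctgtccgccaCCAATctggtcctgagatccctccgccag
Msmo1, chr8:64733579-64733778, minus strand: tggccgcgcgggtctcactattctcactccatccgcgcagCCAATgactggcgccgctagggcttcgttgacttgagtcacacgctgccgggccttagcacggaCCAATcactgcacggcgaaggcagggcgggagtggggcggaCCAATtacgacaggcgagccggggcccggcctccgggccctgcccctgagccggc
Sc5d, chr9:42264301-42264500, minus strand: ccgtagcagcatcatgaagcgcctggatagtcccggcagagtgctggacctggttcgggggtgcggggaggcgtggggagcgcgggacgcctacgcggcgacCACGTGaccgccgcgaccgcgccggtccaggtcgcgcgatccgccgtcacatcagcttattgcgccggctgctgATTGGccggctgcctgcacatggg
Soat1, chr1:156474329-156474528, minus strand: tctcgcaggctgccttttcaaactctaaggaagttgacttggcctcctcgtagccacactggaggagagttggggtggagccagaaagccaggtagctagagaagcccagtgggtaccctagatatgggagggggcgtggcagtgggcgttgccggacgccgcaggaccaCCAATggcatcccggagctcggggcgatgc

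All 7 stretches hold a CCAAT box, the binding motif of NF-Y. Over the full windows, from 250 bases before to 50 after the start of transcription, 25 members had an entry in the table used here and 23 of these (92.0%) held CCAAT, as did 41.058% of all 27025 genes with a window and 43.189% of the 8259 genes with a mean count of at least 10. Acat2 and Scap had no match. Of the 25 members with a window, Hmgcs1 alone matched the sterol regulatory element core TCACNCCAC, 137 bases before the start, and 1.436% of all genes held a match. Only these letters were searched, so a sterol element with other letters would not be counted. The E-box stood in 5 of the 25 members, which were Hsd17b7, Sc5d, Dhcr7, Insig1 and Scap. It stood in 8.093% of all genes and in 12.181% of those with a mean count of at least 10. A match in a window is a description of letters and was not tested as a binding site.

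In embryos at 5 or 6 somite pairs, 5 of the 29 members were lower in diabetic than in normal pregnancies and none was higher. They were Sqle, squalene epoxidase, which commits squalene to sterols, and Cyp51, the cytochrome P450 that demethylates lanosterol. They were joined by Msmo1, the methylsterol oxidase that acts after Cyp51, Mvd, the decarboxylase that ends the mevalonate arm, and Stard4, which carries sterol between membranes. Called here means an adjusted p under 0.05 in edgeR's quasi-likelihood test with Benjamini-Hochberg adjustment over all 11004 genes, of which 0.872% were called lower and 0.591% higher. Fold changes are log2 of diabetic over normal, values by library are counts divided by size factors, and the 17 libraries per group are the replicates.

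Sqle lay between 151.6 and 243.6 in normal embryos with a median of 192.8, and between 107.0 and 196.2 in diabetic embryos with a median of 133.4. Of 17 diabetic embryos, 16 lay below the normal median and 13 below the lowest normal embryo, while 8 of 17 normal embryos lay above the highest diabetic one, so the groups overlapped in part. The difference was -0.48 (SE 0.079, adjusted p = 0.0027). Cyp51 ran from 137.7 over a median of 181.1 to 259.7 in normal embryos and from 87.85 over 127.4 to 170.4 in diabetic embryos. All 17 diabetic embryos lay below the normal median of Cyp51, and 11 lay below its lowest normal value, with a difference of -0.59 (SE 0.099, adjusted p = 0.0027).

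Msmo1 had the largest fold change of the members, -0.60 (SE 0.142, adjusted p = 0.0272), with values of 89.66 to 231.9 (median 143.6) in normal embryos and 61.37 to 160.7 (median 93.0) in diabetic embryos. Its groups overlapped more, with 15 diabetic embryos below the normal median and 7 below the lowest normal embryo. Mvd spread widely, from 95.87 to 332.3 (median 180.0) under normal and from 82.8 to 187.6 (median 144.5) under diabetic conditions, a difference of -0.45 (SE 0.112, adjusted p = 0.0357). Here 16 diabetic embryos lay below the normal median but 1 below the lowest normal value. Stard4 lay at 60.42 to 112.8 (median 86.22) and 44.18 to 91.12 (median 66.84), a difference of -0.34 (SE 0.092, adjusted p = 0.0460), with 16 diabetic embryos below the normal median. The calls of these genes were not equally firm: of 19 settings that left out 1 litter, Stard4 lost its call in 14, Mvd in 8, Msmo1 in 4, and Sqle and Cyp51 in 0. In bulk tissue, fewer cells that use a gene and less of its RNA per cell cannot be told apart.

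**Figure D1:**
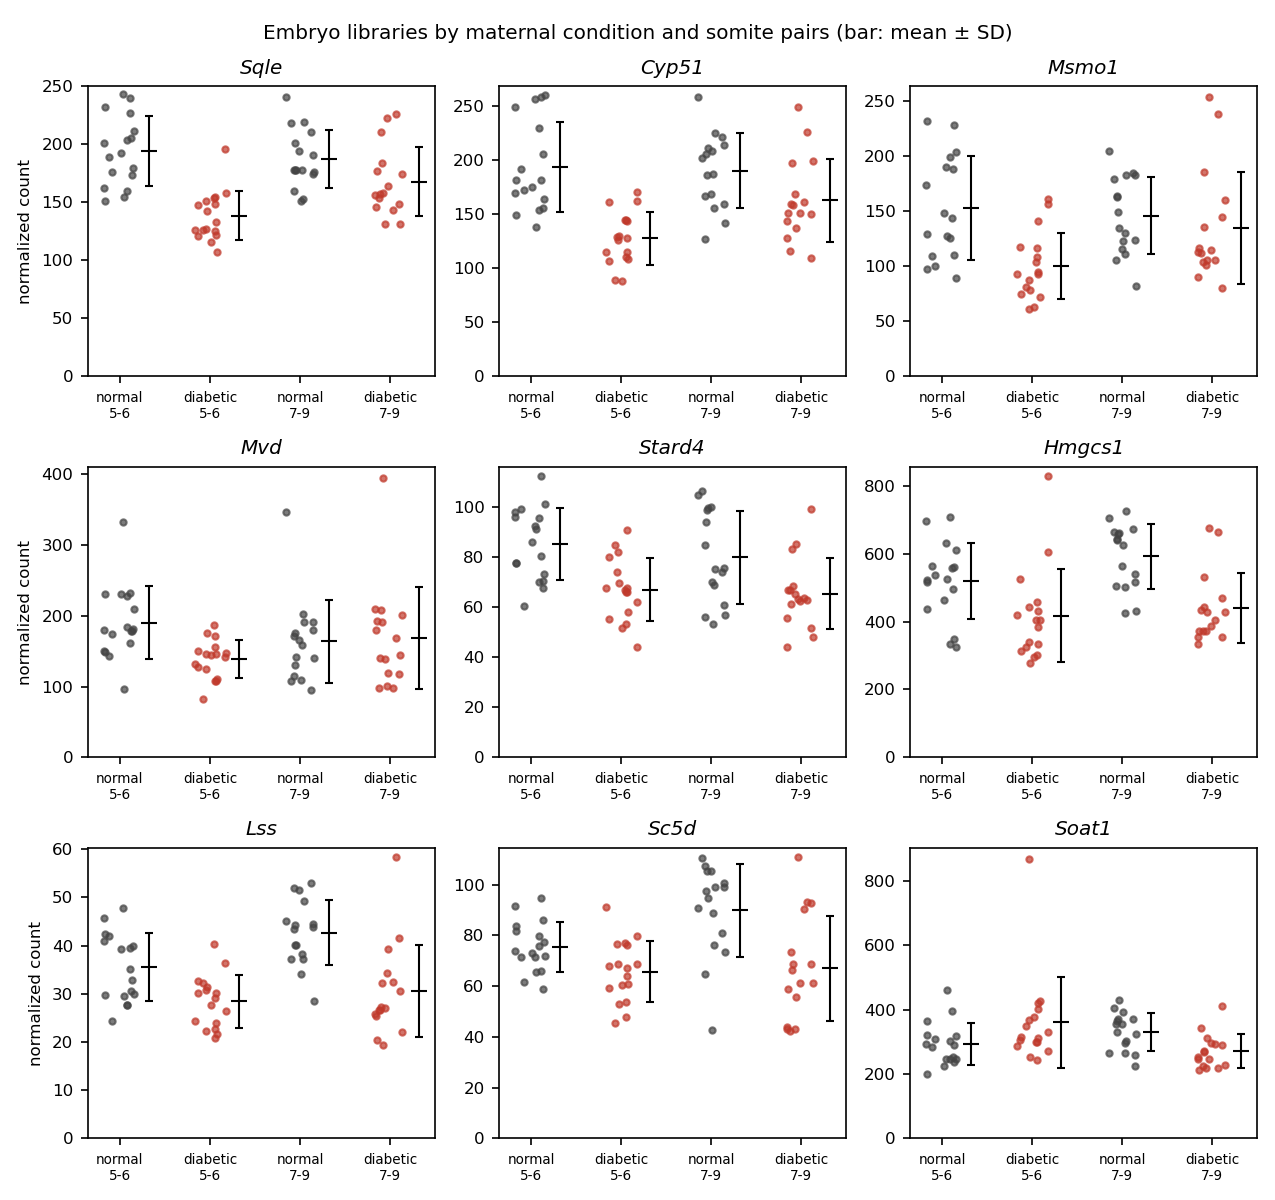
Normalized counts in each embryo library (vertical axes, 1 panel per gene) for the members called in a comparison of diabetic with normal embryos, by stage and maternal condition, with points for libraries and bars for the mean ± SD. Sqle and Cyp51 in diabetic embryos at 5 or 6 somite pairs sit mostly under the lowest normal embryo, while at 7 to 9 somite pairs the groups overlap more.

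The remaining enzymes mostly had values below 0 without passing the test. Of the 19 synthesis enzymes tested, 18 had a fold change below 0, with a median of -0.31, and 16 had an unadjusted p under 0.05, beside 21% of all genes in either direction and 10.3% lower. In the mevalonate arm Hmgcs1 was at -0.31 (adjusted p = 0.148), Mvk at -0.26 (0.226) and Pmvk, which adds the second phosphate to mevalonate, at -0.16 (0.378). Acat2, which joins acetyl-CoA at the very start, was at -0.23 (0.144), and it has a near-identical neighbour, Acat3, with which reads could be shared. Between isoprenoids and lanosterol, Fdps was at -0.39 (adjusted p = 0.097), Fdft1 at -0.36 (0.160) and Lss at -0.32 (0.0844). After lanosterol, Nsdhl, a sterol decarboxylase, was at -0.36 (adjusted p = 0.124), Dhcr7, a terminal reductase, at -0.32 (0.133), and Tm7sf2, Hsd17b7, Sc5d, Lbr and Ebp lay between -0.26 and -0.12. The exception to the direction was Ggps1, which makes geranylgeranyl diphosphate off the sterol route, at 0.23 (adjusted p = 0.292). The 5 enzymes of the mevalonate arm had a median of -0.26 and the 9 that turn lanosterol into cholesterol one of -0.26. Over all 29 members 24 were below 0 with a median of -0.25, where 49.3% of all genes tested were below 0 and their median was 0.0038.

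The 5 regulators had a median of -0.07, and the 5 genes of transport, release and storage, Stard4 among them, one of -0.05. Values in both lists went both ways, and some lay as far from 0 as those of enzymes. Srebf2, which encodes SREBP2, was at -0.25 (adjusted p = 0.261), Scap at -0.07 (adjusted p = 0.744) and Insig1, itself a target of SREBP2, at -0.30 (adjusted p = 0.294). Insig2 was at 0.01 and Srebf1, the partner gene of Srebf2 better known for fatty acid synthesis, at 0.15. None of the 5 regulators had an unadjusted p under 0.05. Soat1, which esterifies cholesterol for storage, was at 0.30 (adjusted p = 0.176), and Npc1, which exports cholesterol from lysosomes, at 0.15 (adjusted p = 0.333). Npc2 and Lipa, also of the lysosome, were at -0.07 and -0.05.

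The dams give a stricter unit than the embryos. Litter means of Sqle lay at 154.3 to 243.6 in 10 normal litters and 116.2 to 196.2 in 9 diabetic litters, where diabetic litters reached into the normal range in 2 cases. A two-sided exact permutation test over all 92378 splits of the litters gave p = 0.0011 for Sqle, 0.0011 for Cyp51 and 0.0011 for Stard4, unadjusted. By the same test Hsd17b7 had p = 0.0028, Lss 0.0100, Mvd 0.0188, Fdps 0.0246, Msmo1 0.0381 and Lbr 0.0493. Thus 9 of 29 members were lower at an unadjusted p under 0.05, beside 6.67% of all genes tested, and no gene of the table passed after adjustment over all genes. With the litter as a random block in limma's linear model of log counts 2 members were called, Sqle and Cyp51 (adjusted p = 0.0367 for both). With counts summed per litter none was called by edgeR.

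**Figure D2:**
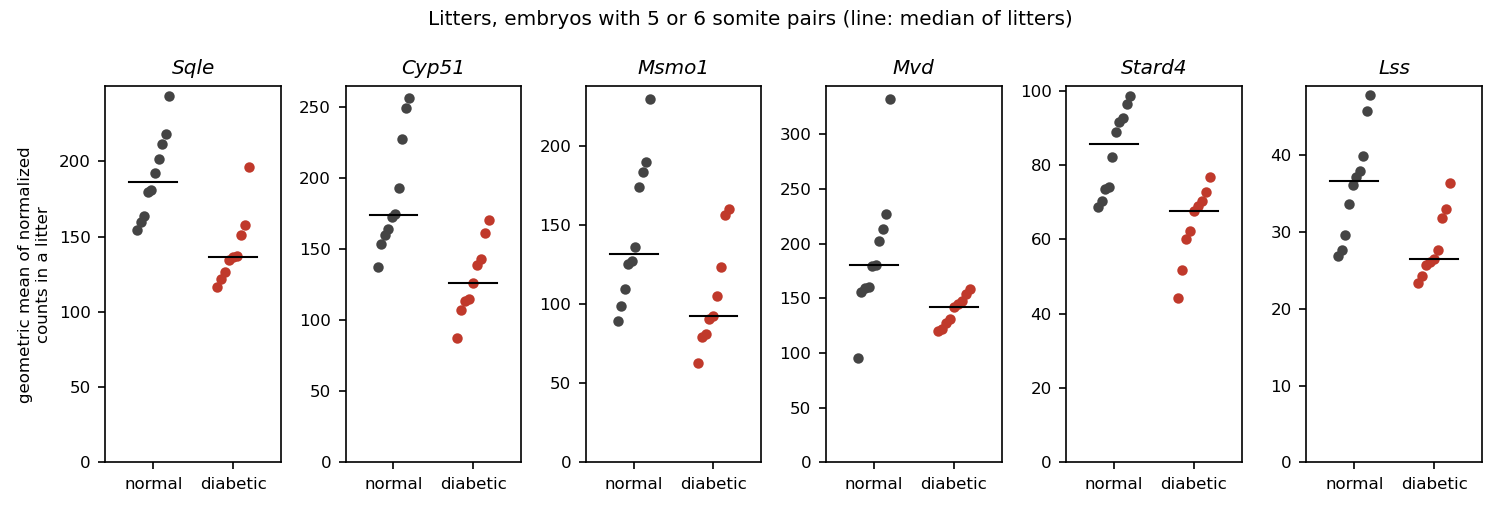
Litter means of normalized counts in embryos at 5 or 6 somite pairs (vertical axes, geometric means from 0), each point 1 litter, normal beside diabetic, lines at the median of litters, for 6 members. For Sqle the 9 diabetic litters run from 116.2 to 196.2 and the 10 normal litters from 154.3 to 243.6.

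The number of calls at this stage also hung on single litters. Leaving out 1 litter at a time gave 2 to 7 called members, with 2 without D28M53, N28M06 or N28M22 and 3 without D24M22, D28M02, D28M23, N28M03 or N28M05. Litter names carry a number, 23, 24 or 28, whose meaning the labels do not give. Within the 12 normal and 13 diabetic embryos of number 28, 8 members were lower, which were the 5 above with Lss, Hsd17b7 and Srebf2. In the same embryos Ggps1 (0.49, adjusted p = 0.0055) and Soat1 (0.52, adjusted p = 0.0119) were higher. Calls over all genes also rose strongly in this subset, as given under the processing below, so the larger count is no result about the members alone. Of the marker lists over all embryos of this stage, none of 8 visceral endoderm genes was called (median 0.19, 7 above 0, 1 with an unadjusted p under 0.05). The 5 markers of neural tissue and paraxial mesoderm were all below 0, with a median of -0.22. Of these, 1 had an unadjusted p under 0.05 and none was called. The 4 endothelial genes tested were also all below 0, with a median of -0.20, and 0 had an unadjusted p under 0.05. The part of these cell types in the members' differences was not tested.

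In embryos at 7 to 9 somite pairs, 4 members were lower in diabetic pregnancies and none was higher. They were Hmgcs1, which makes HMG-CoA at the head of the mevalonate arm, Lss, which closes squalene epoxide to lanosterol, Sc5d, a late sterol desaturase, and Soat1. Of all 10628 genes tested 3.89% were called lower and 5.20% higher. Of 29 members 20 were below 0, with a median of -0.11, beside 51.6% of all genes and a median of -0.01.

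Hmgcs1 had the smallest adjusted p, at 425.7 to 726.5 (median 632.3) in 16 normal and 333.6 to 675.1 (median 417.2) in 16 diabetic embryos, a difference of -0.43 (SE 0.098, adjusted p = 0.0067). Of the diabetic embryos 14 lay below the normal median and 8 below the lowest normal embryo. Lss ran at 28.56 to 53.03 (median 43.73) and 19.45 to 58.3 (median 27.11), a difference of -0.45 (SE 0.123, adjusted p = 0.0208). Though the highest value of Lss was in a diabetic embryo, 15 of 16 diabetic embryos lay below the normal median. Sc5d ran at 42.81 to 110.6 (median 96.05) and 42.12 to 111.0 (median 63.8), a difference of -0.40 (SE 0.132, adjusted p = 0.0464), and its groups covered nearly the same range. Soat1 ran at 224.0 to 428.5 (median 341.6) and 213.2 to 412.2 (median 259.1), a difference of -0.29 (SE 0.095, adjusted p = 0.0465). Of 13 settings that left out 1 litter, Soat1 lost its call in 11, Sc5d in 9, Lss in 2 and Hmgcs1 in 1.

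The litter D24M15 weighed heavily at this stage, since no member was called without it, 1 without D28M31 and 2 each without D28M23, N24M29, N28M05, N28M06 or N28M07. Exact permutation over the 1716 splits of 7 normal and 6 diabetic litters, with a smallest possible p of 0.00058, gave unadjusted p = 0.0052 for Lss, 0.0390 for Hmgcs1 and 0.0455 for Soat1, all lower. That is 3 of 29 members, beside 9.83% of all genes, and Npc2 (p = 0.0082) and Insig2 (p = 0.0251) were higher. With the litter as a random block Hmgcs1 was called (adjusted p = 0.0344). Summed markers of primitive red cells reached 723.7 CPM in a normal and 2291 in a diabetic embryo of this stage, with group medians of 86.8 and 105.1. The 3 red cell genes tested were at 1.17 to 1.63, Hba-x among them at 1.63 (unadjusted p = 0.0148), with none called. All 8 visceral endoderm genes tested were above 0 with a median of 0.52, and all 5 neural and mesoderm markers below 0 with a median of -0.20, Sox1 at -0.36 (unadjusted p = 0.0094) and Sox2 at -0.20 (unadjusted p = 0.0300), again with none called by edgeR. The part of these cell types in the members' values was not tested.

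The other members were not called at this stage. Among the 5 regulators, Srebf1 had the fold change farthest from 0, at -0.61 (SE 0.291, adjusted p = 0.168), ahead of Insig1 at -0.50 (adjusted p = 0.181). Insig2 was at 0.23 (adjusted p = 0.154), and these 3 had an unadjusted p under 0.05, where 27.4% of all genes did. Counts were low for Srebf1, with raw medians of 15.5 in normal and 9 in diabetic embryos, and for Insig1, with 23.5 and 14. Srebf2 was at -0.13 and Scap at -0.06. In the mevalonate and isoprenoid steps Mvk was at -0.22, Ggps1 at -0.11, Acat2 at -0.03, Fdps at 0.06 and Pmvk at 0.16, with adjusted p of 0.147 or more. Fdft1 was at 0.11. After lanosterol Hsd17b7 was at -0.27 (adjusted p = 0.0754) and Tm7sf2 at -0.24, while Lbr, Nsdhl, Ebp and Dhcr7 lay between -0.14 and 0.10. In the lysosome Npc1 was at -0.05, Lipa at 0.08 and Npc2 at 0.15.

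Lss and Hmgcs1 had been at -0.32 and -0.31 at 5 or 6 somite pairs without a call, and Sc5d at -0.20. The 5 genes called at 5 or 6 somite pairs had these differences at 7 to 9: -0.16 for Sqle (adjusted p = 0.197), -0.22 for Cyp51 (adjusted p = 0.159), -0.11 for Msmo1 (adjusted p = 0.642), 0.03 for Mvd (adjusted p = 0.931) and -0.29 for Stard4 (adjusted p = 0.0916). Whether the diabetic difference itself changed with stage was tested as an interaction, and 2 of 29 members were called, beside 8.70% of all genes. For Sqle the diabetic difference at 7 to 9 somite pairs was 0.34 above that at 5 or 6 (SE 0.111, adjusted p = 0.0447). For Soat1 it was -0.57 (SE 0.162, adjusted p = 0.0227), since Soat1 stood at 0.30 first and at -0.29 later. Both calls hung on few embryos: leaving out 1 of 22 litters at a time, Sqle lost its call in 14 cases (adjusted p 0.0276 to 0.143) and Soat1 in 3, without D28M23, D28M53 or N28M06 (0.0079 to 0.0752). Sqle lost its call without D23M11, D24M22, D28M02, D28M23, D28M24, D28M31, D28M53, N24M21, N24M29, N28M03, N28M05, N28M06, N28M22 or N28M30. A single diabetic embryo of D28M23, at 868.1 of Soat1 where the next of its group was at 427.9, also moved these tests. Without this embryo Soat1 was at -0.45 (adjusted p = 0.0401) and Sqle at 0.34 (adjusted p = 0.0564) in the interaction, and 3 members were called lower in diabetic embryos at 5 or 6 somite pairs in place of 5.

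**Figure D3:**
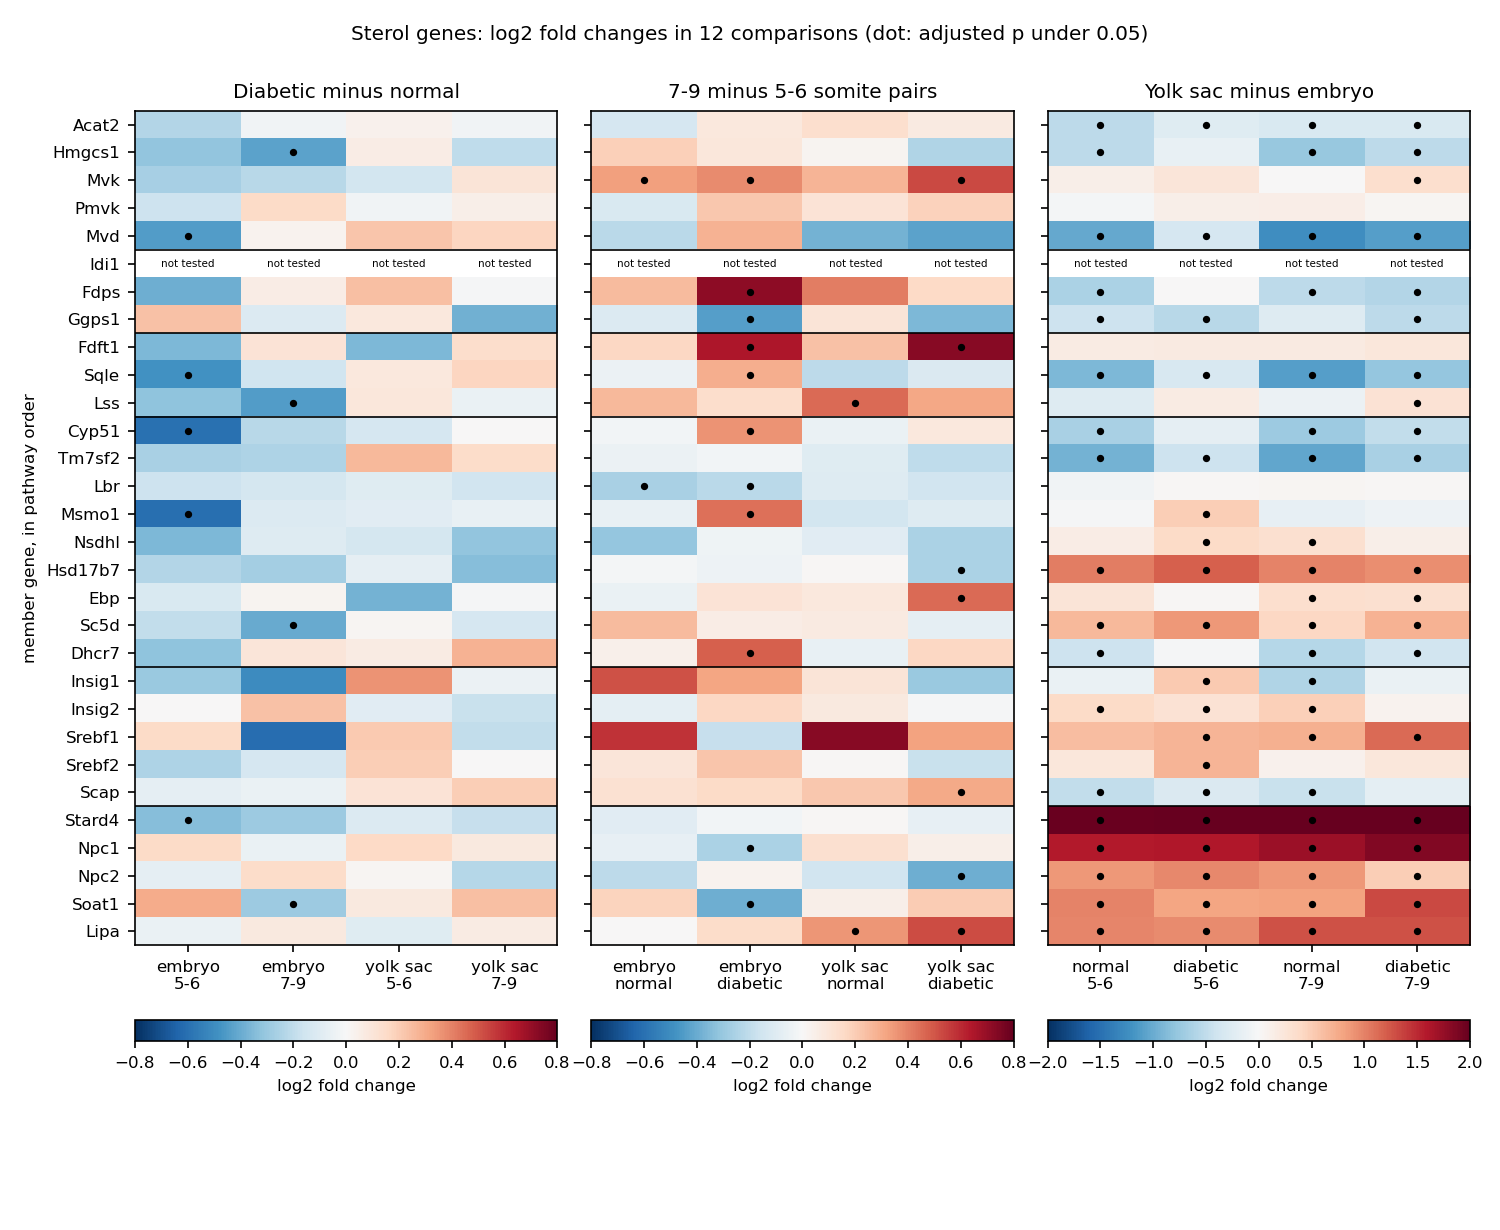
Log2 fold changes of the members tested (rows, grouped by role) in each comparison (columns), coloured from lower to higher, with a dot where the adjusted p was under 0.05. Colours end at 2 on the tissue scale, so Stard4 at up to 2.22 is drawn at the end of the scale.

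In visceral yolk sacs no member was called between diabetic and normal pregnancies by edgeR or DESeq2 at either stage, where edgeR called 0% and 0.0194% of all genes. At an unadjusted p under 0.05 there were 2 members at 5 or 6 somite pairs and 6 at 7 to 9, beside 8.42% and 10.9% of all genes. The median over the 29 members was 0.04 and -0.01, with ranges of -0.38 to 0.36 and -0.38 to 0.28. Sqle was at 0.08 (95% interval -0.20 to 0.37) at 5 or 6 and 0.17 (-0.05 to 0.39) at 7 to 9 somite pairs. Cyp51 was at -0.13 (-0.33 to 0.06) and 0.01 (-0.22 to 0.23). These intervals take libraries as independent, though littermates share a dam, and they do not test yolk sacs against embryos. The member with the smallest adjusted p was Hsd17b7, a sterol ketoreductase, at -0.34 at 7 to 9 somite pairs (SE 0.099, adjusted p = 0.259).

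Over litters, no member was lower in yolk sacs at the earlier stage (2.07% of all genes) and Srebf2 was higher with an exact permutation p of 0.0479. At the later stage 4 of 29 were lower (3.63% of all genes), namely Hmgcs1 (p = 0.0181), Hsd17b7 (0.0198), Lbr (0.0280) and Stard4 (0.0373), all unadjusted exact permutation values. The test of the difference between tissues called no member by edgeR or DESeq2, where 0% of all genes were called at 5 or 6 and 0.389% at 7 to 9 somite pairs. At an unadjusted p under 0.05 it held 13 and 6 members, beside 7.66% and 17.7% of all genes, and the difference of Sqle at the earlier stage was 0.58 (SE 0.162, adjusted p = 0.389). A yolk sac test of stage by diabetes called no member either (0% of all genes, 3 members with an unadjusted p under 0.05, beside 5.84% of all genes). The lower Sqle of diabetic embryos was thus not shown to differ from the yolk sacs once all genes were adjusted for.

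The largest differences among these genes were between the tissues themselves. All 5 genes of sterol transport, release and storage were higher in the yolk sac than in the embryo, under both maternal conditions and at both stages, and several synthesis enzymes were lower. In the order normal 5 or 6, diabetic 5 or 6, normal 7 to 9 and diabetic 7 to 9 somite pairs, 8, 13, 11 and 11 members were higher. The shares of all genes called higher were 36.6%, 35.1%, 35.2% and 36.3%. In the same order 10, 6, 10 and 9 members were lower, beside 35.8%, 35.5%, 39.5% and 38.7% of all genes, and against such shares the counts of members are no result about them as a group.

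Stard4 had 60.42 to 112.8 (median 86.22) in normal embryos of 5 or 6 somite pairs and 254.0 to 462.3 (median 312.6) in their yolk sacs, with no overlap. Its log2 difference, yolk sac over embryo, was 1.98, 2.22, 2.03 and 2.14 over the 4 settings (largest adjusted p 1.6e-30). Npc1 went from a median of 69.1 to one of 205.3 in the first setting, with differences of 1.58, 1.59, 1.71 and 1.85. Lipa, the lysosomal acid lipase that frees cholesterol from its esters, differed by 0.98, 0.95, 1.28 and 1.28. Stard4, Npc1 and Lipa were each higher in the yolk sac of all 66 concepti. Npc2, the lysosomal partner of Npc1, differed by 0.86, 0.97, 0.86 and 0.50, and Soat1 by 0.99, 0.79, 0.80 and 1.33.

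**Figure D4:**
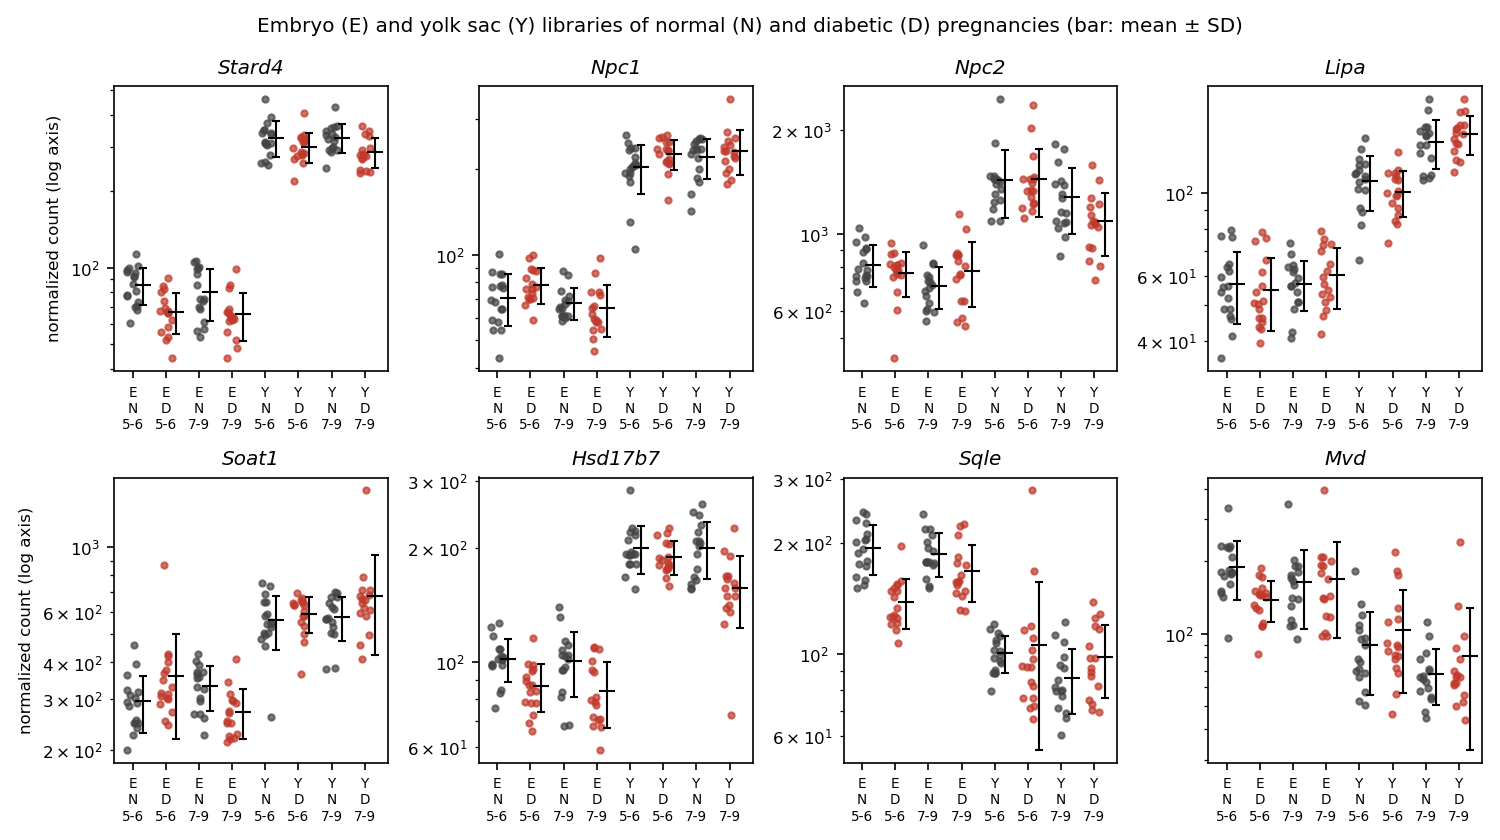
Normalized counts by library in embryos and yolk sacs (vertical axes on a log scale, 1 panel per gene), by stage and maternal condition, for 8 members, with bars for the mean ± SD. Stard4 and Npc1 stand higher in yolk sacs, and Sqle and Mvd stand higher in embryos.

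Within the synthesis enzymes both directions occurred. Of the 5 mevalonate enzymes 3, 2, 3 and 3 were lower in yolk sacs, and Mvk was higher in the last setting. Of the 9 enzymes after lanosterol 2, 4, 4 and 3 were higher and 3, 1, 3 and 3 lower, and the arms were not tested against each other. Sqle was lower in yolk sacs by -0.89, -0.31, -1.11 and -0.77 and was below the embryo's value in 17 of 17, 15 of 17, 16 of 16 and 16 of 16 concepti. Mvd differed by -1.03, -0.34, -1.24 and -1.11, and Tm7sf2, a sterol reductase, by -0.94, -0.41, -1.04 and -0.64. In the other direction Hsd17b7 was higher in yolk sacs by 1.03, 1.20, 1.0 and 0.94, with medians of 102.0 and 192.6 in the first setting. Sc5d was also higher, by 0.65, 0.87, 0.41 and 0.69. All these differences had adjusted p values of at most 0.0440 by edgeR. Tm7sf2 overlaps Vps51 on the same strand, so its counts may hold reads of that gene.

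Of regulators, Insig2 was higher in yolk sacs in 3 settings (0.38, 0.30 and 0.48) and Scap lower in 3 (-0.49, -0.30 and -0.45). Srebf2 was called in diabetic concepti at 5 or 6 somite pairs, at 0.68 (SE 0.131, adjusted p = 4.5e-06). Srebf1 was called higher in yolk sacs in 3 settings, by 0.68 in diabetic concepti of 5 or 6 somite pairs, 0.71 in normal and 1.14 in diabetic concepti of 7 to 9 (adjusted p = 0.0315, 0.0130 and 0.00022). Insig1 was called higher in diabetic concepti of 5 or 6 somite pairs, at 0.52 (adjusted p = 0.0093), and lower in normal concepti of 7 to 9, at -0.60 (adjusted p = 0.0130). Srebf1 and Insig1 had low counts, so their differences rest on few molecules per library. Visceral endoderm markers were higher in the yolk sac in every tissue comparison, and so were markers of primitive red cells, while members went both ways. The red cell markers had group medians of 15.3 to 105.1 CPM in embryos and 3534 to 8025 in yolk sacs. How much the mix of cell types gave to each gene was not tested.

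Between stages 2 members were called in normal embryos. Mvk, mevalonate kinase, was higher at 7 to 9 than at 5 or 6 somite pairs by 0.33 (SE 0.114, adjusted p = 0.0436) and Lbr, a sterol reductase that is also a receptor of the nuclear lamina, was lower by -0.26 (SE 0.076, adjusted p = 0.0165). These 2 stand beside 5.82% of all genes called higher and 7.85% lower. In diabetic embryos 7 members were higher and 4 lower, beside 15.8% and 15.6% of all genes.

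The 7 that rose in diabetic embryos were all enzymes of synthesis. The earlier diabetic embryos here are those in which Sqle, Cyp51 and Msmo1 were called lower, so these rises are not independent of those differences. Litters such as D24M15 and D28M23 gave embryos to both stages, and the stage fit held no term for litter. Fdps, which makes farnesyl diphosphate, rose by 0.71 (SE 0.133, adjusted p = 4.3e-05), from a median of 54.45 to one of 87.19. Fdft1, squalene synthase, rose by 0.65 (SE 0.163, adjusted p = 0.0017), Dhcr7 by 0.48 (SE 0.130, adjusted p = 0.0036), and Msmo1 by 0.44 (SE 0.149, adjusted p = 0.0184). Mvk rose by 0.38 (SE 0.117, adjusted p = 0.0096), Cyp51 by 0.36 (SE 0.103, adjusted p = 0.0055) and Sqle by 0.29 (SE 0.079, adjusted p = 0.0037). The 4 that fell were Ggps1 (-0.44), Soat1 (-0.39), Npc1 (-0.25) and Lbr (-0.22), with adjusted p of 0.0062 to 0.0244. Of these genes the stage by diabetes test called Sqle and Soat1. Fdps overlaps an annotated gene on the same strand, so its counts may be shared. Fdft1, Cyp51, Ggps1, Lbr and Npc1 overlap protein-coding genes on the other strand, and the strand setting of the counting is not given. Markers of other cells moved with stage too, since the 3 red cell genes tested were higher by 2.51 to 3.86 in normal and 3.88 to 5.11 in diabetic embryos, all called, and 0 and 3 of 5 endothelial genes were higher. Their part in the stage differences was not tested.

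**Figure D5:**
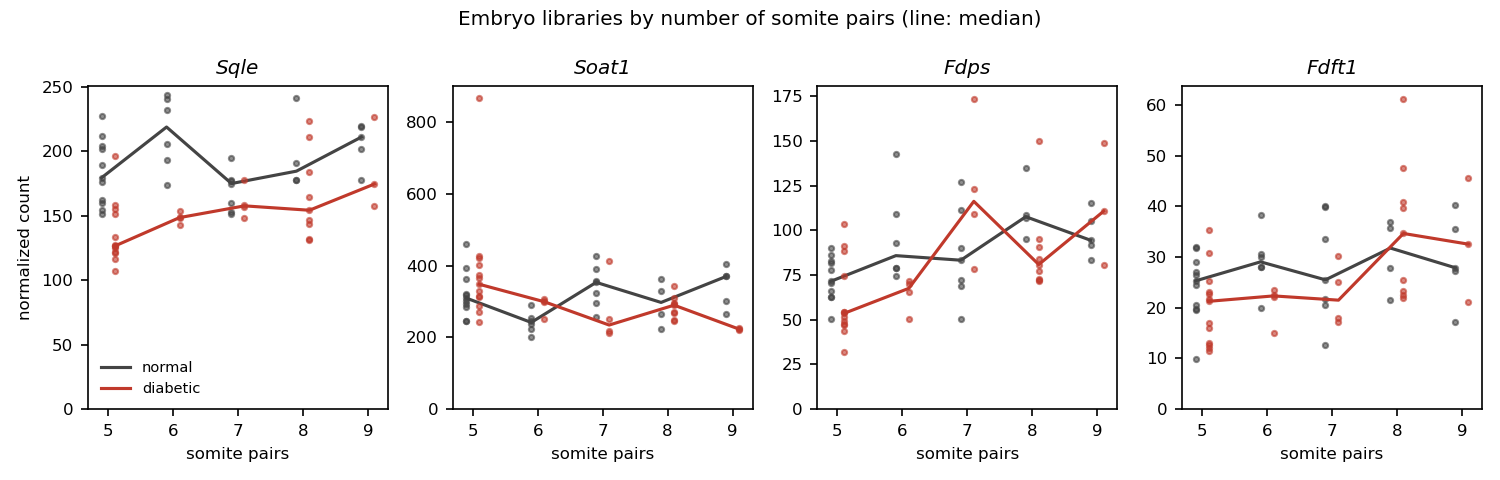
Normalized counts in embryos by number of somite pairs (horizontal axis, 5 to 9) for Sqle, Soat1, Fdps and Fdft1, with points for libraries of normal and diabetic pregnancies and lines through the medians. Median Sqle in diabetic embryos is 126.3 at 5 somite pairs and 174.4 at 9, against 179.3 and 210.8 in normal embryos.

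By single somite count, median Sqle in diabetic embryos was 126.3, 148.4, 157.5, 154.1 and 174.4 at 5, 6, 7, 8 and 9 somite pairs, from 13, 4, 4, 9 and 3 embryos. In normal embryos it was 179.3, 218.6, 174.8, 184.4 and 210.8, from 11, 6, 7, 4 and 5 embryos. The diabetic median of Sqle was below the normal one at each of the 5 counts. Normal and diabetic groups of a stage were not matched for somite count, since 13 of 17 diabetic and 11 of 17 normal embryos of the earlier stage had 5 pairs.

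In yolk sacs of normal pregnancies Lipa rose from a median of 110.6 to 138.5, by 0.36 (SE 0.078, adjusted p = 0.0017), and Lss by 0.45 (SE 0.150, adjusted p = 0.0451), beside 5.71% of all genes higher and 2.95% lower. In yolk sacs of diabetic pregnancies 5 rose and 2 fell, beside 18.9% and 14.3%. Those that rose were Fdft1 (0.73), Mvk (0.53), Lipa (0.52), Ebp, a sterol isomerase (0.45), and Scap (0.30). Those that fell were Npc2 (-0.39) and Hsd17b7 (-0.25), and adjusted p ran from 4.1e-07 for Lipa to 0.0230 for Scap. Lipa thus rose with stage under both conditions. Of 10 visceral endoderm markers 6 rose and 1 fell in normal and 8 rose in diabetic yolk sacs, and of 5 red cell markers 4 and 5 rose, and their part in the members' changes was not tested.

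From embryo to embryo, synthesis enzymes tended to vary together with Sqle. As a description over 66 embryos, on deviations from each embryo's group mean, the correlation with Sqle was above 0 for all 18 other enzymes tested, with a median Pearson r of 0.365, beside 0.0039 over all genes. Cyp51 (r = 0.747) and Msmo1 (r = 0.740) varied most closely with Sqle, and Nsdhl (0.599), Hmgcs1 (0.573) and Fdps (0.561) came next. Insig1 stood at 0.477, while Soat1 (-0.295), Npc1 (-0.285) and Srebf1 (-0.208) went the other way. In yolk sacs 16 of 18 enzymes were above 0, with a median of 0.213. The embryos share litters and each library's depth enters all of its values, so these are no independent points and carry no test.

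Other genes around the pathway were read from the same fits. Of 8 genes of SREBP cleavage and regulated degradation, Erlin2, an endoplasmic reticulum protein that acts with the sterol-regulated degradation machinery, was lower in diabetic embryos at 5 or 6 somite pairs (-0.27, adjusted p = 0.0377) and 7 were not called. Of 8 fatty acid genes tested, Scd1, the stearoyl-CoA desaturase, was lower (-0.39, adjusted p = 0.0377). Of these 8, 7 had a fold change below 0, with a median of -0.18, and 5 had an unadjusted p under 0.05, beside 21% of all genes. Of the 8 genes of cleavage and degradation, 5 were below 0, with a median of -0.06, and 3 had an unadjusted p under 0.05. None of the 8 prenyl branch genes, the 3 oxysterol and LXR genes and the 9 genes of sterol transfer and esters tested there was called by edgeR, with 1 gene of each at an unadjusted p under 0.05, beside 21% of all genes. At 7 to 9 somite pairs edgeR called no gene of these lists in embryos, with 2, 1, 0, 0 and 2 genes under 0.05 before adjustment in the lists of cleavage, prenyl branches, oxysterols, sterol transfer and fatty acids, where 27.4% of all genes were. In the stage by diabetes test of embryos, Pdss2, of the coenzyme Q side chain, was called at 0.51 (adjusted p = 0.0403) and Nr1h3, the sterol receptor LXR alpha, at 0.91 (adjusted p = 0.0355). Between tissues Mylip, an LXR target that marks lipoprotein receptors for degradation, was higher in yolk sacs by 3.54 in normal concepti of 5 or 6 somite pairs (adjusted p = 9.3e-27).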

How the data were processed

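RNA of embryos and visceral yolk sacs at E8.5 was made into QuantSeq 3′ libraries with molecular identifiers by the authors, who aligned the reads with STAR, collapsed them by identifier and deposited counts of molecules per gene made with HTSeq, on mm10. Versions of STAR and HTSeq and the strand setting of the counting are not given in the sources used here. Mvd, Ggps1, Fdft1, Cyp51, Lbr, Srebf1 and Npc1 overlap protein-coding genes on the other strand. Their counts could hold reads of those genes if strand was not used. The deposited counts carried no normalization. The 30 members, their roles and all other lists were chosen with earlier results of these data known, and partly follow an earlier analysis of the same files.

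Groups came from the sample labels, and the stage of a yolk sac from its embryo. A further 4 libraries, marked as duplicates in the labels, were left out. Genes were kept by filterByExpr with a minimum count of 10, scaled by TMM and tested with glmQLFit and glmQLFTest of edgeR 4.0.16 under R 4.3.3, with Benjamini-Hochberg adjustment over all genes tested. Each diabetic to normal comparison used 1 tissue and stage, tissue comparisons the 4 groups of a stage, and stage comparisons the 4 groups of a tissue, with interactions from the same fits. Normalized counts were divided by size factors of DESeq2 1.42.0. Litter means of log2 of the normalized count plus 1 were compared by two-sided exact permutation, given unadjusted beside the share of all genes, in place of a planned adjustment over the members alone. The tests were checked on simulated counts. Gene symbols are the deposited ones, with GENCODE filling in 25646 of the 26051 genes that had none. The random block for litters used limma 3.58.1 on log counts weighted by voom, in place of the count model of edgeR.

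Members with an adjusted p under 0.05 were to be named, at most 10 per comparison, and further members, chosen after their values were seen, are given by value or by range. Replicates are libraries of separate concepti, and littermates are not independent of each other. Pairing of embryo and yolk sac rests on the conceptus in the labels: their deviations from group means correlated with a median of 0.100 over 34 concepti and 0.0435 over 32. Diabetic and normal groups share no dam and no pairing.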

Additional observations from a re-analysis of the deposited data

Results flagged for a closer look

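The stage by diabetes test in embryos called 2 of 29 members, beside 8.70% of all genes. Leaving out 1 of 22 litters at a time, Sqle lost its call in 14 cases and Soat1 in 3. For Sqle the later difference exceeded the earlier by 0.34 (adjusted p = 0.0447), and for Soat1 it was lower by -0.57 (adjusted p = 0.0227), both by the interaction term in edgeR's quasi-likelihood test over 11304 genes. Normal embryos had Sqle medians of 192.8 and 177.7 and diabetic embryos 133.4 and 157.7 at the earlier and later stage. Soat1 medians were 290.4 and 341.6 in normal and 314.4 and 259.1 in diabetic embryos.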

How the results depend on the processing

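For members called in a comparison (at most 10 in each), 571 fold changes under alternatives kept direction and call, 92 kept direction and lost the call, and none reversed. Most lost calls were in diabetic against normal embryos, 39 of 160 values at 5 or 6 and 41 of 104 at 7 to 9 somite pairs. In the tissue comparisons no call was lost. Members not called were not followed in these alternatives, and the litter means of some turned the other way: Msmo1 in embryos at 7 to 9 somite pairs was at 0.06, Lipa in embryos at 5 or 6 at 0.06 and Cyp51 in yolk sacs at 7 to 9 at -0.07. In embryos at 5 or 6 somite pairs 5 members were called, against 3 with sex as a covariate, 0 with counts summed per litter, 2 with the litter as a random block, 10 within title number 28 and 2 to 7 leaving out 1 litter at a time. At 7 to 9 somite pairs 4 were called, against 2 without a filter on low counts, 0 summed per litter, 1 with the litter as a random block, 1 within title number 28, 2 without concepti of different sex labels, 2 with all 8 groups in 1 fit and 0 to 5 leaving out litters. The stage by diabetes test in embryos called 2, against 1 with RLE factors and 1 without a filter, each without Sqle (adjusted p = 0.0522 and 0.0951). Between stages 2 were called in normal embryos, against 1 without a filter and 1 with all 8 groups in 1 fit, and 2 in normal yolk sacs, against 1 by DESeq2, 1 with RLE factors, 1 without a filter and 1 with a mean count filter. All genes called in embryos at 5 or 6 somite pairs numbered 161, against 4 with the litter as a random block and 1753 within title number 28. The title number, the leave-outs of the stage test and the litter block of stage comparisons were added after seeing the data, and the cause of these changes was not tested. With a replicate block for the conceptus, tissue calls were 18, 20, 21 and 20 in place of 18, 19, 21 and 20, and no named call was lost. Within a litter the correlation of libraries was 0.251 and 0.128 in embryos of the earlier and later stage.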

Other observations

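In the diabetic group of 5 or 6 somite pairs, 1 conceptus, replicate 11 of litter D28M36, stood at the top of the synthesis enzymes in both tissues. Its yolk sac had the highest value of the 17 in the group for 10 of 20 enzymes, and its embryo for 6 of 20. In its yolk sac Sqle was at 278.6, where the group median was 92.05, and Hmgcs1 at 781.3, where the group median was 357.8. In its embryo Sqle was at 196.2 and Hmgcs1 at 828.5, both the highest of the diabetic embryos of this stage. Among normal embryos of 7 to 9 somite pairs, replicate 15 was the highest of 16 for 10 of 20 enzymes, while its yolk sac was the highest for 3. In the other 5 combinations of tissue, condition and stage no library was the highest for more than 6 of 20 enzymes.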
